A study of Sus scrofa with 12 samples.

Results

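The insulin-like growth factor (IGF) genes IGF1, IGF2, IGF1R, IGF2R, IGFBP2, IGFBP3, IGFBP4, IGFBP5, IGFBP6 and IGFBP7 were examined in pig ovary. Probe sets were taken where the platform annotation gave 1 of these 10 symbols and no other. This found 23 of the 24123 probe sets on the array, standing for 7 genes. IGFBP3, IGFBP4 and IGFBP7 had no probe set under their own symbol and were not analysed here. A probe set was tested if its log2 value was above 4 in at least 6 sows, which 13 of the 23 did, for 6 genes.

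The ovaries came from 12 sows of an F2 cross of the Iberian and Meishan breeds, all killed at day 30 of pregnancy. By estimated breeding value (EBV) for prolificacy, 6 sows were labelled high and 6 low, and the comparison asks how ovarian transcripts differ between them. Each sow gave 1 porcine Affymetrix array, and its sample is described as the average of both ovaries. The values are the authors' log2 values after GCRMA, which corrects background and normalises between arrays, so a difference of 1 is 2-fold.

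IGF1 and IGF2 are secreted peptides that act on cells mainly through IGF1R, a tyrosine kinase receptor, while IGF2R takes IGF2 up for degradation in lysosomes. The binding proteins IGFBP2 to IGFBP6 hold the ligands in body fluids and matrix, and can limit or prolong their action. In the ovary the system is known for working with gonadotrophins in follicle growth, granulosa cell steroid synthesis and luteal function. In the RefSeq pig annotation (assembly Sscrofa11.1) IGFBP2 and IGFBP5 are neighbours with no other protein-coding gene between them, and IGF2 lies next to the insulin gene INS.

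Array medians lay between 4.81 and 4.97, and rank correlations between sows ran from 0.974 to 0.993. High 3 and high 2 had the lowest mean rank correlation with the other sows. All 9 luteal markers listed passed the filter, as did 6 of the 11 granulosa markers present on the array. CYP19A1, AMH and FSHR did not pass, while CYP19A3 did. The actin control's 3' minus 5' difference, a sign of RNA integrity, was 2.59 ± 0.45 in high and 2.12 ± 0.13 in low prolificacy sows (SD, n = 6 each). It was highest in high 2 and high 4, at 3.23 and 2.98. Albumin (ALB), a liver product, was between 8.67 and 12.61 in high 5, low 1, low 3 and low 4, and between 2.04 and 3.33 in the other 8 sows. Of the 11 liver markers present on the array, only 3, APOA1, TF and HP, passed the filter. The liver score, the mean deviation of these 3 from their means over the sows, did not follow albumin throughout. It was lowest in low 3 and high 5, at -0.77 and -0.75, and highest in low 4 and low 1, at 0.63 and 0.53. In whole ovaries, fewer cells of a type cannot be told apart from less RNA per cell.

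**Figure D1:**
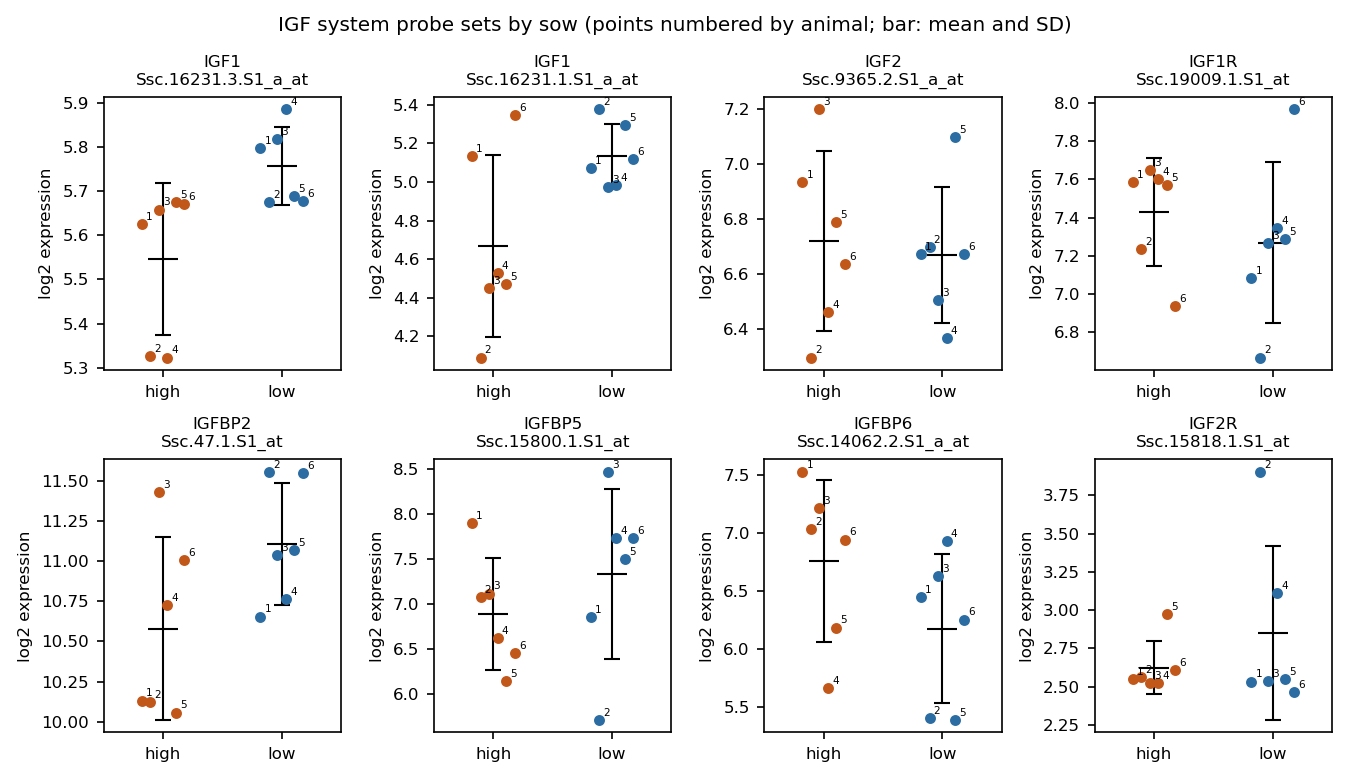
Log2 expression of 8 IGF system probe sets in each sow, with high prolificacy sows on the left and low on the right of each panel, points numbered by animal, and bars for the mean and SD. In the upper left panel all 6 high sows lie under the low sows for IGF1, by a gap of 0.0003, and in the other panels the groups overlap. IGF2R lies under 4 in all 12 sows.

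Of the ligands, IGF1 was lower in high prolificacy sows in both of its tested probe sets, without passing the adjusted threshold. In the brighter one the lowest, median and highest values were 5.32, 5.64 and 5.67 in high sows, against 5.68, 5.74 and 5.89 in low sows. The 2 lowest sows were high 4 and high 2, and the other 4 high sows lay between 5.63 and 5.67. The groups did not overlap, but the gap between high 5 and low 2 was 0.0003. Means were 5.55 ± 0.17 in high and 5.76 ± 0.089 in low sows, a difference of -0.21 (95% interval -0.42 to -0.0017, limma adjusted p = 0.874). An exact permutation test of this value alone gave p = 0.00216, the smallest that 6 against 6 sows allow. Such tests were run for all 13 tested IGF probe sets and for 21 other genes of the pathway. Groups did not overlap in 1 of the 13 tested IGF probe sets, where 0.471% of all 13390 tested probe sets did so. After quantile normalization the groups overlapped, with 5 high sows under the lowest low sow and 3 low sows above the highest high sow, and median centring gave the same counts.

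The dimmer tested IGF1 probe set had a lowest, median and highest value of 4.09, 4.50 and 5.34 in high sows, against 4.97, 5.10 and 5.38 in low sows. High 2, 3, 4 and 5 lay under every low sow, whereas high 1 and high 6 lay among them. The difference was -0.47 (95% interval -0.89 to -0.047, 1.38-fold, limma adjusted p = 0.839, exact permutation p = 0.0498). It was -0.27 without high 2 and high 3 and -0.23 with array weights. A further IGF1 probe set lay between 2.45 and 2.53 in all sows and was not tested.

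The actin 3' minus 5' difference moved with IGF1. Over the 12 sows the brighter IGF1 probe set had r = -0.874 (permutation p = 0.00127, adjusted p = 0.0381) and rho = -0.601 (permutation p = 0.0428, adjusted p = 0.546) with it. Without high 2 and high 4, the 2 sows farthest from the median, r was -0.464 (permutation p = 0.176). With fewer sows over a narrower range, this cannot decide whether the relation rests on those sows. Within groups r was -0.853 in high and -0.523 in low sows. With the actin difference as a covariate the IGF1 group differences were -0.057 and -0.31. The part of RNA integrity in the IGF1 difference was not tested beyond this covariate, whose own group means are given above.

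IGF2, the second ligand, was read by 13 probe sets, of which 5 were tested and 8 lay between 1.87 and 3.37 in all sows. The brightest had a lowest, median and highest value of 6.30, 6.71 and 7.20 in high sows, against 6.37, 6.67 and 7.10 in low sows. High 2 held the lowest value and high 3 the highest, so the high group spanned the low one. Its difference was 0.050 (95% interval -0.30 to 0.40, limma adjusted p = 0.990). Of the 5 tested probe sets 3 were higher and 2 lower in high sows, with differences from -0.21 in the third brightest to 0.15 in the second brightest. None of these sets the high group apart from the low one. The second brightest ran from 5.30 to 6.70 in high and from 4.90 to 6.26 in low sows (limma adjusted p = 0.985). The third brightest had 3 high sows, high 2, 4 and 6, under every low sow and 2, high 1 and 3, above every low sow. The SDs of that probe set were 0.41 in high and 0.097 in low sows, and the difference in spread was not tested. The fourth brightest averaged 5.11 ± 0.34 in high and 5.13 ± 0.13 in low sows, and the fifth 4.98 ± 0.13 in high and 4.92 ± 0.023 in low sows.

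The receptor gene IGF1R was read by a brighter and a dimmer probe set, both overlapping between the groups. In the brighter one the lowest, median and highest values were 6.94, 7.58 and 7.65 in high sows, against 6.67, 7.28 and 7.97 in low sows. High 1, 3, 4 and 5 stood close together between 7.57 and 7.65, and low 6 was above them all. The difference was 0.16 (95% interval -0.27 to 0.59, limma adjusted p = 0.953). It was 0.040 without low 2, the lowest of the 12 sows, 0.30 without low 6, and -0.007 with array weights. The dimmer one averaged 4.79 ± 0.40 in high and 4.74 ± 0.26 in low sows. The 2 IGF1R probe sets had r = 0.262 and rho = 0.385 over the sows (permutation p = 0.409 and 0.217, adjusted p = 0.430 and 0.235), a relation not detectable with 12 sows.

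IGF2R, the receptor that clears IGF2, did not reach 4 in any sow and was not tested. Its single probe set had a lowest, median and highest value of 2.52, 2.55 and 2.97 in high sows, against 2.47, 2.54 and 3.90 in low sows. The highest values were low 2 at 3.90, low 4 at 3.11 and high 5 at 2.97, and the other 9 sows lay between 2.47 and 2.61.

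IGFBP2, a binding protein with some preference for IGF2, was the member probe set with the largest negative difference. Its lowest, median and highest values were 10.06, 10.43 and 11.43 in high sows, against 10.66, 11.06 and 11.56 in low sows. High 1, 2 and 5 lay under every low sow, high 3 was among the highest, and low 2 and low 6 lay above every high sow. Means were 10.58 ± 0.57 in high and 11.11 ± 0.38 in low sows, a difference of -0.53 (95% interval -1.09 to 0.032, 1.44-fold). The limma adjusted p was 0.874 and the exact permutation p 0.0909. With albumin as a covariate the difference was -0.79 (limma adjusted p = 0.633), and with the actin difference as a covariate it was -0.25 (limma adjusted p = 0.718). Among low sows, the 3 with high albumin, low 1, 3 and 4, had the 3 lowest IGFBP2 values, at 10.66, 11.04 and 10.77, with low 5 close above at 11.07. In the high group high 5 had both the highest albumin and the lowest IGFBP2. The relation of IGFBP2 with albumin was not tested. With the liver score, which leaves albumin out, IGFBP2 had r = -0.103 over the sows (permutation p = 0.743, adjusted p = 0.875).

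IGFBP5, which binds to extracellular matrix and is a known product of ovarian follicles in several species, spread more widely between sows. It ran from 6.15 to 7.90 with a median of 6.85 in high sows, against 5.71 to 8.47 with a median of 7.62 in low sows. Low 3 held the highest and low 2 the lowest value of the 12. The difference was -0.45 (95% interval -1.35 to 0.46, limma adjusted p = 0.935). It was -0.77 without low 2, -0.22 without low 3 and -0.30 without high 5, and -0.80 with array weights. Its within-group SD, 0.80, exceeded that of 94.8% of the probe sets tested. The dimmer IGFBP6 probe set had a larger one, 0.846.

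IGFBP6, which binds IGF2 with strong preference, was the member with the largest positive difference, and both of its probe sets gave it. In the brighter one the lowest, median and highest values were 5.66, 6.99 and 7.53 in high sows, against 5.38, 6.35 and 6.93 in low sows. High 1, 2, 3 and 6 lay above every low sow, while high 4 and high 5 lay among them. Means were 6.76 ± 0.70 in high and 6.17 ± 0.64 in low sows, a difference of 0.59 (95% interval -0.17 to 1.35, 1.5-fold). The limma adjusted p was 0.899 and the exact permutation p 0.152. The dimmer probe set differed by 0.65 (limma adjusted p = 0.920), and by 0.41 without low 5. With the actin difference as a covariate the 2 values were 1.0 and 1.28, with limma adjusted p of 0.274 and 0.247. The 2 probe sets followed each other closely, with r = 0.95 and rho = 0.930 over the 12 sows (permutation p = 4e-05 and 8e-05, adjusted p = 0.00052 and 0.00104).

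**Figure D2:**
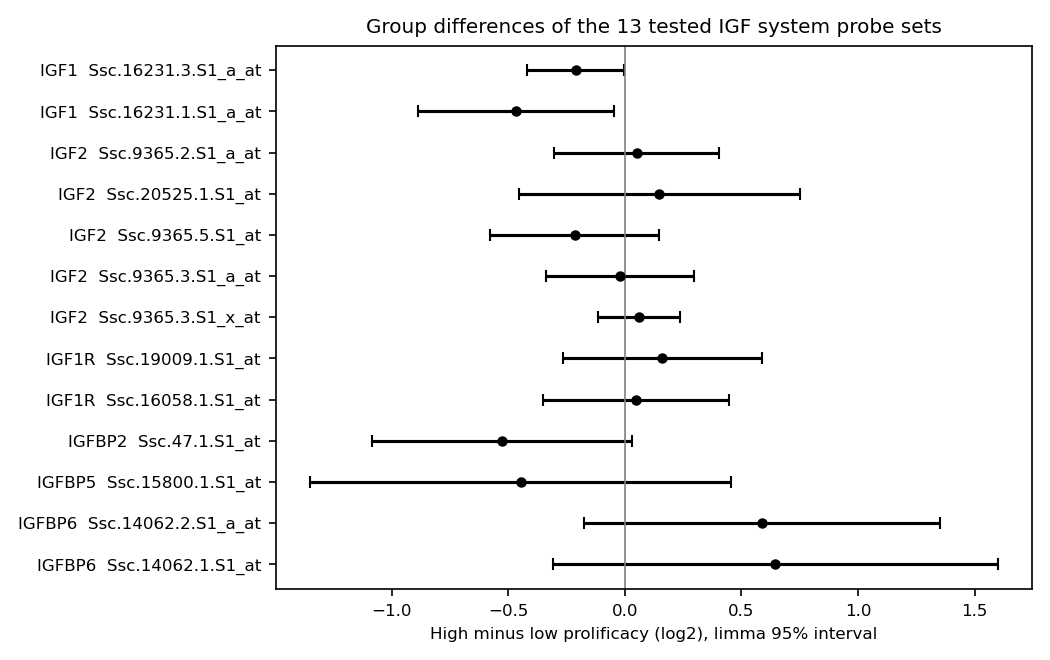
High minus low differences (log2, x axis) of the 13 tested probe sets with limma 95% intervals. The intervals of both IGF1 probe sets end just under 0 and those of the other 11 cross 0.

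Across the 13 tested probe sets, 7 were higher and 6 lower in high prolificacy sows, where 47.6% and 52.4% of all tested probe sets were. None passed the limma adjusted threshold of 0.05, which 0% of the 13390 did, and the smallest adjusted p was 0.839 among the 13 and 0.460 among all. At an unadjusted limma p under 0.05 there were 2 of the 13, the IGF1 probe sets, both lower in high sows. Of all tested probe sets 5.64% passed that level, 3.38% lower and 2.26% higher in high sows. The median difference was 0.049 over the 13 and -0.010 over all tested probe sets. The median half-width of the 95% interval was 0.42 for the 13 and 0.35 over all tested probe sets.

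**Figure D3:**
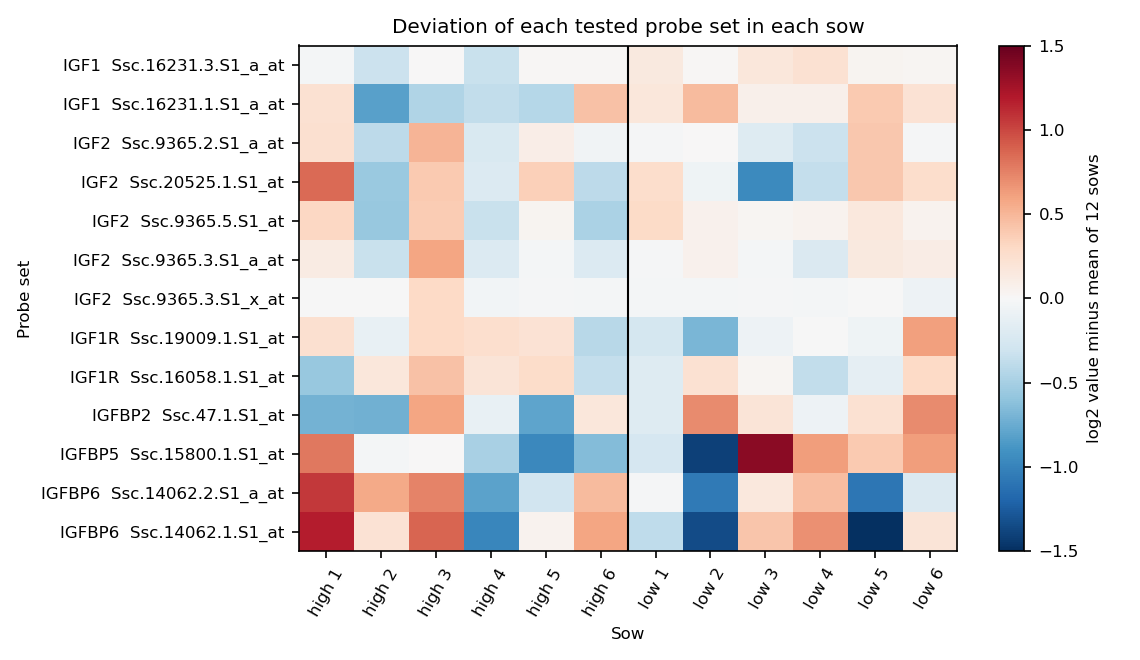
Deviation of each tested probe set from its mean over the 12 sows (log2, colour), with sows along the x axis, high prolificacy left of the line and low right of it, and the brightest probe set of each gene uppermost. The IGFBP5 and IGFBP6 rows carry the widest deviations, and the brighter IGF1 row and the fifth IGF2 row the narrowest.

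Probe sets of 1 gene followed each other in IGFBP6 and for the most part in IGF2, but not past the adjusted threshold in IGF1 or IGF1R. Of 13 pairs, most of them of IGF2, 7 had an adjusted permutation p of r under 0.05, all of IGF2 or IGFBP6. Over the 13, r ran from 0.247 to 0.95. For IGF2 the brightest probe set had r = 0.876 and rho = 0.881 with the fourth brightest (permutation p = 0.0001 and 0.00035, adjusted p = 0.00065 and 0.00227). The fifth IGF2 probe set, whose x suffix marks probes that can match other sequences, had r from 0.247 to 0.744 with the other 4. Without high 3, which stood at 5.24, that probe set lay between 4.88 and 4.94. The IGF1 pair had r = 0.589 (permutation p = 0.0425, adjusted p = 0.0614) and rho = 0.294 (permutation p = 0.352). Without high 2 and high 4 that r was -0.011. Within groups r was 0.559 in high sows (permutation p = 0.243) and -0.833 in low sows (permutation p = 0.0486, adjusted p = 0.217).

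No relation between different members was detectable over the 12 sows. Over 15 pairs of members, each by its brightest probe set, r ran from -0.355 for IGFBP2 with IGFBP6 to 0.452 for IGF1R with IGFBP5. In none of the 15 was the unadjusted permutation p of these r under 0.05. Within groups IGF1 with IGF2 had r = 0.781 in high and -0.733 in low sows (permutation p = 0.107 and 0.0806). In low sows IGFBP6 had r = 0.859 with IGF1 and -0.836 with IGF2 (permutation p = 0.025 and 0.0194, adjusted p = 0.188 for both). After adjustment 0 of the 15 passed in either group. The neighbouring genes IGFBP2 and IGFBP5 had r = -0.0069 and rho = 0.105 (permutation p = 0.983 and 0.751).

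**Figure D4:**
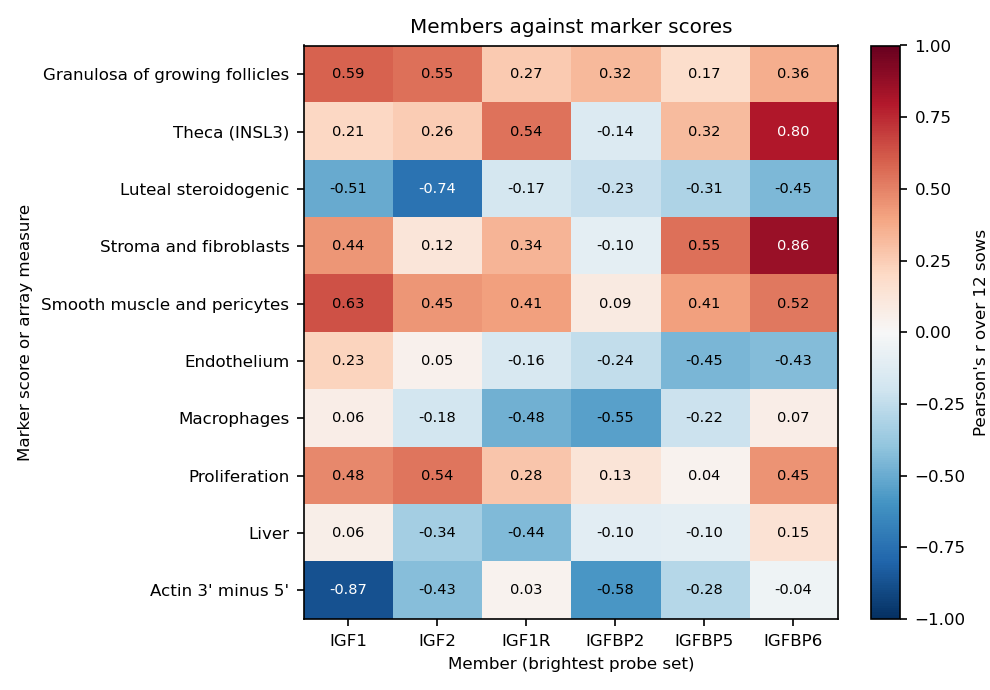
Pearson's r over the 12 sows between 9 marker scores or the actin 3' minus 5' difference (rows) and the brightest probe set of 6 members (columns). The strongest values are IGFBP6 with the stroma score (0.86) and with INSL3 (0.80), and IGF1 with the actin difference (-0.87).

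IGFBP6 was the member that moved with genes of stroma. A marker score is the mean, over measured genes of a list, of each gene's deviation from its mean over the 12 sows. IGFBP6 had r = 0.860 (permutation p = 0.00036, adjusted p = 0.0216) and rho = 0.811 (permutation p = 0.0021, adjusted p = 0.126) with the stroma and fibroblast score. Within groups r was 0.821 in high and 0.991 in low sows, and without low 2 and high 3 it was 0.802 (permutation p = 0.00569). None of these 3 passed after adjustment over the 60 relations (adjusted p = 0.257 in high sows, 0.167 in low sows and 0.341 without low 2 and high 3). Within 6 sows the smallest possible permutation p is 0.00139, which for a single relation adjusts to 0.0833. The within-group adjusted values therefore cannot decide whether the relation holds in each group. The 6 genes of the score did not behave alike. IGFBP6 had r = 0.881 with DCN (decorin), 0.849 with FBLN1 (fibulin), 0.792 with COL6A3 and 0.695 with COL1A2 (collagen chains), but -0.049 with LUM (lumican) and -0.291 with POSTN (periostin). The score was 0.051 ± 0.44 in high and -0.051 ± 0.49 in low sows. With that score as a covariate the IGFBP6 difference was 0.45 (limma adjusted p = 0.611), an alternative added after the correlation was seen.

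IGFBP6 also had r = 0.797 (permutation p = 0.00238, adjusted p = 0.0476) and rho = 0.755 (permutation p = 0.00611, adjusted p = 0.183) with INSL3, a peptide hormone of theca and luteal cells. INSL3 was the only gene of the theca list to pass the filter, and CYP17A1 of that list did not. INSL3 averaged 10.89 ± 1.77 in high and 9.66 ± 2.06 in low sows, a difference of 1.23 (limma adjusted p = 0.929) that was 0.66 without low 2. It ran from 6.80 to 13.35 over the 12. Without high 3 and low 2 the relation of IGFBP6 with INSL3 was r = 0.694 (permutation p = 0.028, adjusted p = 0.546), so it no longer passed after adjustment. Within groups r was 0.808 in high and 0.74 in low sows.

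**Figure D5:**
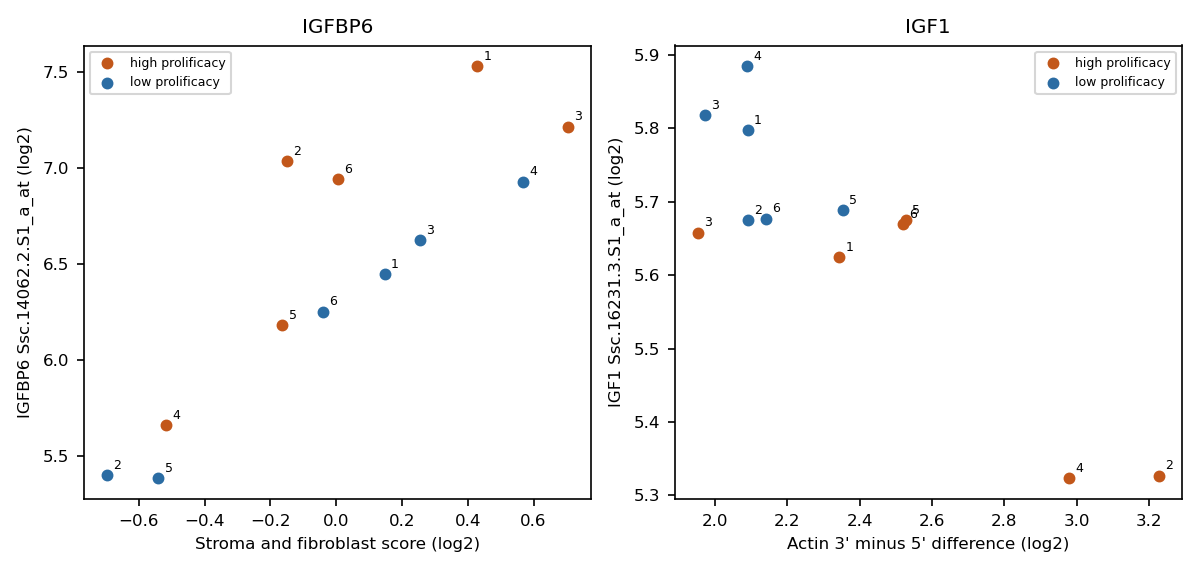
Left, IGFBP6 (log2) against the stroma and fibroblast score. Right, IGF1 (log2) against the actin 3' minus 5' difference (log2). Points are sows numbered by animal, high prolificacy in orange and low in blue. High 2 and high 4 stand apart at the lower right of the IGF1 plot.

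Of 60 relations between members and scores, those 3 had an adjusted permutation p of r under 0.05, and none had by rho. IGF2 had r = -0.738 and rho = -0.643 with the luteal score (permutation p = 0.00605 and 0.0276, adjusted p = 0.0907 and 0.546). Without high 2 and high 3 that r was -0.426 (permutation p = 0.219), which with fewer sows cannot decide whether it rests on those sows. With the granulosa score, IGF1 had r = 0.590 (permutation p = 0.0402, adjusted p = 0.358) and rho = 0.196 (permutation p = 0.546), and r was -0.262 without high 2 and high 4. With the smooth muscle score it had r = 0.633 (permutation p = 0.0284, adjusted p = 0.341) and rho = 0.336. IGFBP2 had its strongest value with the actin difference, r = -0.584 and rho = -0.587 (permutation p = 0.0447 and 0.0495, adjusted p = 0.358 and 0.546). IGFBP5 had its strongest with the stroma score, r = 0.552 and rho = 0.573 (permutation p = 0.0635 and 0.0546, adjusted p = 0.358 and 0.546). IGF1R had its strongest with INSL3, r = 0.544 and rho = 0.524 (permutation p = 0.0681 and 0.0849, adjusted p = 0.358 and 0.588). None of these passed.

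As a description with no test, the genes whose values followed each member most closely over the 12 sows were sought among 5078 other genes. For IGF1 they were ST6GAL1, a sialyltransferase (r = 0.926), and IDH3A, a subunit of mitochondrial isocitrate dehydrogenase (r = 0.918). For IGF2 they were the cell cycle kinase CDK2 (r = 0.856) and the CpG-binding protein CXXC1 (r = 0.838). For IGF1R they were FAM198B (r = 0.862) and the DNA repair glycosylase SMUG1 (r = 0.820). For IGFBP2 they were the sorting nexin SNX17 (r = 0.889) and RCAN3, a regulator of calcineurin (r = 0.882). For IGFBP5 they were the splicing kinase CLK1 (r = 0.934) and the scaffold protein KIDINS220 (r = 0.921). For IGFBP6 they were the transcription factors TCF21 (r = 0.925) and NR2F2 (r = 0.916). By rho these genes had from 0.650 (CXXC1) to 0.923 (RCAN3), with 0.769 for ST6GAL1 and 0.762 for IDH3A. Within low sows IDH3A had r = 0.525 with IGF1. With so many genes and 12 sows that share 1 normalization, values of this size are picked from a large search.

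Other genes of the pathway were taken from 4 lists with 65 genes, of which 33 were on the array under their symbol and 21 passed the filter. In high prolificacy sows 10 of the 21 were higher and 11 lower, where 47.6% and 52.4% of all tested probe sets were. Of the 21, 0 passed the limma adjusted threshold, as did 0% of all tested probe sets. An unadjusted limma p under 0.05 was found in 0 of the 21, against 5.64% of all tested probe sets. Their median difference was -0.011, against -0.010 over all tested probe sets.

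Among proteases that free IGFs from binding proteins and their inhibitors, 3 of 7 measured genes were higher and 4 lower in high sows. The shares over all tested probe sets were 47.6% and 52.4%. STC1, which in human inhibits the protease PAPPA, averaged 10.19 ± 0.89 in high and 9.61 ± 0.97 in low sows, a difference of 0.58 (limma adjusted p = 0.929). It was 0.29 without high 3 and 0.93 without low 6. PLAT, the tissue plasminogen activator, averaged 11.27 ± 0.98 in high and 11.70 ± 0.20 in low sows, a difference of -0.44 (limma adjusted p = 0.929). High 2 stood at 9.50, against 11.08 to 12.24 in the other high sows, and without it the difference was -0.085. Both probe sets of PAPPA lay under 4 in every sow.

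Of other carriers and related receptors only CD93, an endothelial receptor that binds IGFBP7 in human and mouse, passed the filter. It averaged 5.2 ± 1.11 in high and 5.80 ± 0.54 in low sows, a difference of -0.59 (limma adjusted p = 0.927), and -0.98 without high 3 or -0.36 without high 4. IGFBP1 and IGFALS, which forms the large circulating complex with IGFBP3 or IGFBP5, lay under 4 in every sow. VTN (vitronectin), a plasma and matrix protein, exceeded 4 in 3 sows and reached 9.05. The insulin receptor INSR exceeded 4 in 1 sow, and the growth hormone receptor GHR, upstream of IGF1 in liver, likewise in 1 sow. In the growth hormone axis 3 of 3 measured genes had a positive difference, against 47.6% of all tested probe sets, but only 1 of the 3 had without high 2, the sow with the largest actin 3' minus 5' difference. The part of RNA integrity in this was not tested. The kinase JAK2 averaged 7.48 ± 0.93 in high and 7.24 ± 0.26 in low sows, a difference of 0.24 (limma adjusted p = 0.968). It stood at 9.13 in high 2, against 6.34 to 7.71 in the other high sows, and the difference was -0.092 without that sow. The transcription factors STAT5A and STAT5B differed by 0.21 and 0.032 (limma adjusted p = 0.920 and 0.990), and by 0.11 and -0.048 without high 2.

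Among signalling proteins below the receptor, 4 of 10 measured genes were higher and 6 lower in high sows, with a median difference of -0.012. Of all tested probe sets 47.6% were higher and 52.4% lower. Without high 2 the 10 genes had 7 higher and 3 lower, and the median difference over all tested probe sets was -0.0016. FOXO1, a transcription factor that AKT inactivates, averaged 9.22 ± 0.95 in high and 8.63 ± 1.02 in low sows, a difference of 0.59 (limma adjusted p = 0.931). It was 0.34 without low 2 and 0.92 without low 6. The kinase AKT2 averaged 7.18 ± 0.040 in high and 7.13 ± 0.068 in low sows, a difference of 0.049 (limma adjusted p = 0.965), and 0.021 without low 2. The receptor substrate IRS1 lay under 4 in every sow.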

How the data were processed

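The authors deposited log2 expression values per probe set. The log2 unit was read from the values, which ran from 0.971 to 15.34. Per the submitters' processing notes they used GCOS and GCRMA, with versions and settings not given in the sources used here. GCRMA draws dim probe sets toward a floor, which compresses their differences. Of the probe sets, 10069 had 1 gene symbol, 198 several and 13732 none, besides 124 Affymetrix controls, which were left out of tests. The names of 62 porcine controls were moved back by 21 places before the actin values were read. This brought the mean gap to the general spike controls of the same name, over 22 pairs, to 0.471, against 5.29 as deposited. The pairs are of spike controls, and the actin names were moved with them rather than checked on their own.

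The test between high and low sows was limma's (version 3.58.1, R 4.3.3; lmFit, then eBayes) over 13390 probe sets, two-sided, with Benjamini-Hochberg adjustment at 0.05 over all of them. Single values also had an exact permutation test over 924 splits. Correlations used 100000 permutations, or all orders within a group. Members with several probe sets are shown by the brightest, by mean over the sows, unless stated. The members and lists were chosen with earlier results of these data known. All member probe sets are named, with 2 genes per pathway list by smallest p and the 2 most alike genes per member. Genes of the stroma list were set out singly after its correlation was seen. The limma step and the correlation step were tested on simulated data. Alternatives were the filter, normalization, the animal number as a block, sows left out, moderation, array weights and covariates. No sequence is shown.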

Additional observations from a re-analysis of the deposited data

Results flagged for a closer look

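In 11 of 60 groups of 6 sows, over 30 probe sets, 1 sow lay far from the other 5 by Dixon's criterion for 6 values, which chance meets in about 1 group in 20. Of these 11, 7 were on probe sets under 4 in every sow, where small departures from the floor are enough. The fifth brightest IGF2 probe set was 5.24 in high 3, against 4.91 to 4.94 in the other high sows, and 4.88 in low 6, against 4.92 to 4.94 in the other low sows. Among the untested IGF2 probe sets, one was 3.37 in high 5 (2.95 to 3.06 in the other high sows) and 3.12 in low 5 (2.94 to 2.98 in the other low sows). Another was 2.24 in high 1, another 2.36 in low 1 and another 2.35 in low 5. The untested IGF1 probe set was 2.52 in low 5, and IGF2R was 2.97 in high 5, against 2.52 to 2.61 in the other high sows. JAK2 was 7.75 in low 3, against 6.99 to 7.24 in the other low sows, and AKT2 was 6.99 in low 2, against 7.15 to 7.17 in the other low sows.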

How the results depend on the processing

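No IGF probe set passed under any alternative run, and their smallest adjusted p was 0.247, for IGFBP6 with the actin difference as a covariate. Over all probe sets the count past the threshold was 0 in each alternative, with 0 to 1 when 1 sow was left out (1 without low 1). Both IGF1 probe sets, IGFBP2, IGFBP5 and both IGFBP6 probe sets kept their sign in every alternative that tested them. Both IGF1 probe sets and the dimmer IGFBP6 one were not tested under the filter above 6 in at least 6 sows. The sign turned only in IGF1R and IGF2. The dimmer IGF1R probe set was -0.034 to 0.169 with 1 sow left out, -0.092 without high 2 and high 3, -0.045 with array weights and -0.018 with albumin as a covariate, and the brighter one was -0.007 with array weights. The second brightest IGF2 probe set was -0.028 to 0.274 and the brightest -0.046 to 0.136 with 1 sow left out, the brightest also -0.040 with albumin. The fourth brightest IGF2 probe set was -0.142 to 0.044 with 1 sow left out, 0.006 after quantile normalization, 0.251 with the actin difference and 0.043 with the granulosa score. The third brightest was 0.109 with the actin difference. Probe sets with an unadjusted limma p under 0.05 numbered 755, and 2178 with the actin covariate. The cause was not tested. Leaving out each sow for the pathway genes and INSL3 was chosen after seeing the data.

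Of 60 relations with marker scores, 3 passed by r and 0 by rho, 0 without the 2 farthest sows, 0 within the high group and 0 within the low group. Within a group no single relation could pass, since its smallest possible permutation p, 0.00139, adjusts to 0.0833. Of 13 pairs of probe sets of 1 gene, 7 passed by r, 5 within the high group and 0 within the low group. The labels name no pairing by animal number. Same-numbered sows had correlations of their deviations from -0.455 to 0.168, which cannot exclude a pairing, as no test was made. With the animal number as a replicate block 0 probe sets passed, 662 had an unadjusted limma p under 0.05 against 755 without it, and 0 of the 13 IGF probe sets did.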

Other observations

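IGF2 was set against the marker scores within each group as well. In high prolificacy sows its brightest probe set had r = 0.975 with the proliferation score, 0.95 with the granulosa score and -0.960 with the luteal score. In low prolificacy sows the same values were -0.357, -0.258 and -0.0559. The luteal score varied less in low sows, from -0.057 to 0.076, against -0.295 to 0.208 in high sows. The pattern in r was not limited to these scores. It was 0.896 with smooth muscle, 0.857 with INSL3 and 0.85 with stroma in high sows, and -0.447, -0.452 and -0.78 in low sows. The difference between the groups was not tested. In exact permutation tests over all orders of 6 sows, the high group's relation with proliferation had p = 0.00139, the smallest possible. After adjustment over 60 relations this was 0.0833. With the actin 3' minus 5' difference IGF2 had r = -0.979 in high and 0.857 in low sows (exact permutation p = 0.00278 and 0.0556, adjusted p = 0.0833 and 0.556).

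The granulosa score spread over -2.0 to 1.62 in high and -0.88 to 1.44 in low sows, and the proliferation score over -1.42 to 2.42 in high and -0.91 to 1.39 in low sows. High 2 and high 4 were lowest in the granulosa score, and high 3 was highest in both scores. IGF2 was likewise highest in high 3 and, among high sows, lowest in high 2 and high 4.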
